A study of Mus musculus with 2 samples.

Results

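miR-690, miR-709 and miR-720 are 3 mouse entries of the miRNA registry miRBase that gave strong signals on miRNA arrays and whose standing as true miRNAs has been doubted. They were taken as the rows with the accessions MIMAT0003469, MIMAT0003499 and MIMAT0003484, in that order, and make up 3 of the 739 rows of the deposited table. The table gives accessions and no names, so the pairing of these accessions with the names comes from the list of entries chosen for description. The 3 entries were chosen for their brightness on these arrays, so their ranks and shares are descriptions and were not tested. The label "bright" held on both arrays, where the entries lay between rank 5 and rank 8, whereas no value in the table bears on whether they are true miRNAs.

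The study measured miRNA levels on 1-colour arrays in a pair of mouse epidermal keratinocyte lines of Balb/c origin, each hybridised to 1 array. Pam212 is a spontaneously transformed line that does not metastasise, and LY-1 is a metastatic line derived from Pam212. Each line was represented by 1 plate, left untreated and harvested at confluence from medium with serum, so there were no replicates and no test between the lines was possible. The LY-1 array stands for 1 derivative line and cannot be told apart from the handling of 1 plate and 1 labelling reaction.

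A miRNA is cut from a hairpin precursor by the enzymes Drosha and Dicer and is loaded onto an Argonaute protein, which it guides to messenger RNAs through its seed, the bases near its 5′ end. An array probe reports any labelled RNA that pairs with it, including fragments of transfer RNAs, ribosomal RNAs or repeat transcripts, so a bright spot does not show how the RNA was made. miR-720 is the clearest such case, since its sequence lies within a transfer RNA and the entry is regarded as a tRNA fragment. miR-709 has been described in mouse cells as a nuclear RNA that binds the primary transcript of miR-15a and miR-16-1. miR-690 has been described in mouse macrophage vesicles as an RNA that acts on Nadk, the kinase that makes NADP.

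The sequence of miR-690 is shown because it allows the entry to be compared with other miRNAs and with mouse promoter sequences. RefSeq sequences (build GRCm38.p6) were matched for 1 of the 3 entries. The mature strand lies at chr16:28599940-28599961 on the minus strand, and its seed, bases 2 to 8, is in capitals. The hairpin lies at chr16:28599935-28600043 on the same strand, and its capitals mark the 12-base windows found in 20 or more mouse promoter sequences, as described further on. Both are written 5′ to 3′.
miR-690: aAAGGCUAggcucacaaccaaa
Mir690 hairpin: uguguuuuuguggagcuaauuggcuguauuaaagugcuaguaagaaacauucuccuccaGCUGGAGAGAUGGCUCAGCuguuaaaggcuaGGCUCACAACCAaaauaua

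The RefSeq gene table listed 2 of the 3 entries. Mir690 lies within the span of Fgf12, which encodes a fibroblast growth factor homologue that binds voltage-gated sodium channels, and the promoters of Fgf12 are on the minus strand, as Mir690 is. Mir709 lies within the span of Rfx1, which encodes a transcription factor that binds X-box promoter elements. The table holds gene spans and no exons, so whether either entry is intronic was not analysed here.

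miR-690 read 1919 intensity units in Pam212 and 1626 in LY-1. These values ranked 5 of 460 measured rows in Pam212 and 6 of 437 in LY-1. They made up 2.09% of the summed intensity of the Pam212 array and 1.88% of that of the LY-1 array. On the log2 scale LY-1 minus Pam212 was -0.24, which made miR-690 the only one of the 3 entries with the lower value in LY-1, by a ratio of 1.18 between the Pam212 and LY-1 intensities.

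miR-720, the tRNA fragment, read 1618 in Pam212 and 1644 in LY-1. It ranked 6 in Pam212 and 5 in LY-1, and so changed places with miR-690 between the arrays. It gave 1.77% of the summed intensity of the Pam212 array and 1.90% of that of the LY-1 array. The log2 difference was 0.02 as deposited, and the scaling moved both its sign and its size, from -0.02 with one 75th percentile for both arrays to 0.11 with equal array sums and 0.13 after quantile normalization. It was the smallest of the 3 in size as deposited, but not after quantile normalization, where miR-709 stood at 0.00. That step keeps ranks only, and miR-709 held the same rank on both arrays, so its 0.00 was fixed in advance.

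miR-709 read 755 in Pam212 and 825 in LY-1 and ranked 8 on both arrays. Its share was 0.824% in Pam212 and 0.954% in LY-1. The log2 difference was 0.13, a ratio of 1.09 between the LY-1 and Pam212 intensities. In LY-1 the row ranked just above it, MIMAT0000136, read 830 and the row just below, MIMAT0011216, read 796, so its place there rests on small gaps. In Pam212 the neighbours were MIMAT0011216 at 865 above and MIMAT0011210 at 593 below.

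An intensity depends on how well each probe binds and on how well each RNA takes the label, so ranks across rows are ranks of signal and do not order the amounts of the RNAs. With that limit, the 3 entries gave 4.68% of all measured signal on the Pam212 array and 4.73% on the LY-1 array. The array sums themselves were 91631 and 86492, a log2 difference of -0.08, and that of the members' own sums was -0.07. The 3 entries thus held nearly the same share of both arrays while the sums were slightly lower in LY-1.

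**Figure D1:**
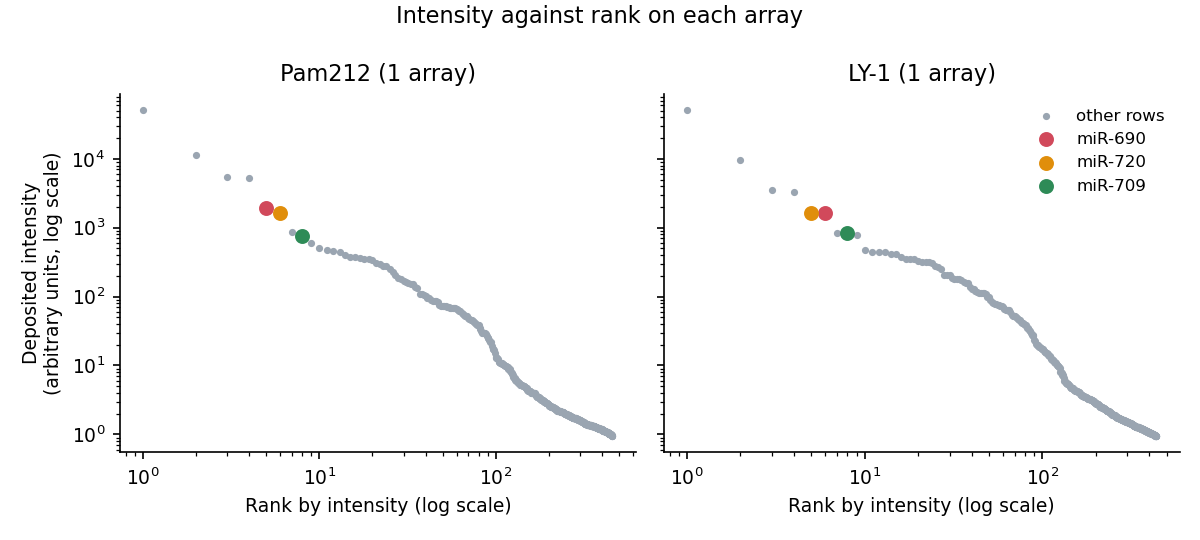
Deposited intensity (log axis, arbitrary units) against rank (log axis) for the 460 rows measured in Pam212 and the 437 measured in LY-1, each point 1 row. The 3 coloured entries sit between ranks 5 and 8 on both arrays, just above the start of the flatter part of each curve.

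Only 4 rows were brighter than all 3 entries on both arrays. These were MIMAT0011218, MIMAT0011221, MIMAT0009414 and MIMAT0009401, which together gave 80.5% of all signal on the Pam212 array and 78.2% on the LY-1 array. The share given for an entry therefore depends chiefly on the brightest rows in the sum. With those 4 rows left out, the 3 entries held 24.0% of the remaining signal in Pam212 and 21.7% in LY-1. With only the brightest row, MIMAT0011218, left out, they held 10.7% and 11.6%. The order of the lines in the summed share turned between these denominators, so the data give no order of the lines for the summed share. All 3 entries were far below the brightest row of each array, at 1.47% to 3.73% of its intensity in Pam212 and 1.61% to 3.21% in LY-1. The limits of the scanner are not given, so saturation was not tested.

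**Figure D2:**
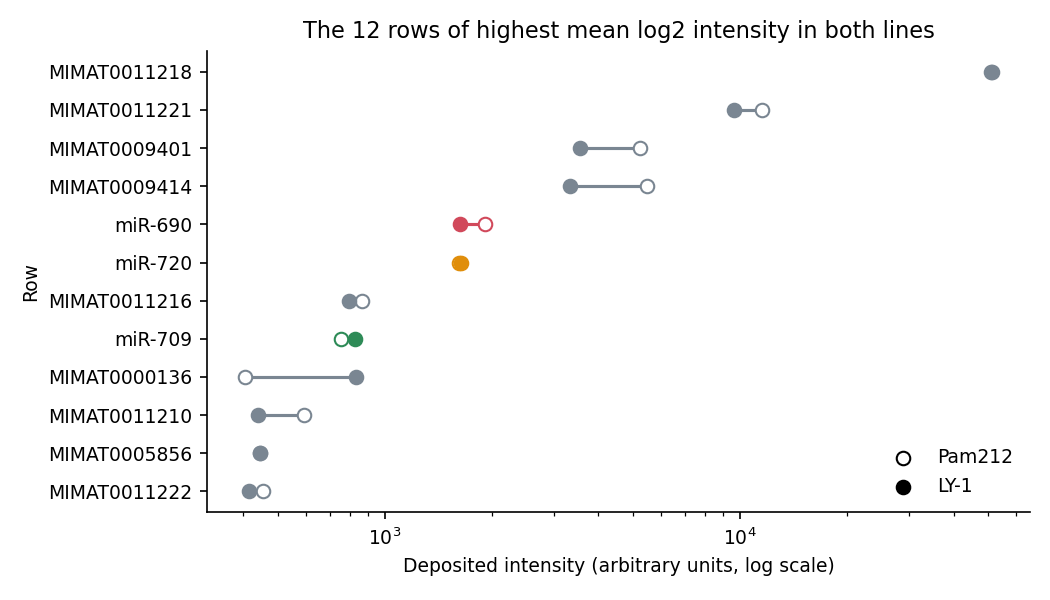
Deposited intensity (log axis, arbitrary units) in Pam212 (open) and LY-1 (filled) for the 12 rows with the highest mean log2 intensity, each line joining the 2 values of 1 row. The log2 differences are -0.24 for miR-690, 0.02 for miR-720 and 0.13 for miR-709, and among the other 9 rows they run from -0.72 for MIMAT0009414 to 1.04 for MIMAT0000136, with 4 smaller in size than that of miR-690 and 2 smaller than those of all 3 entries.

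The intensities of the entries lay close together in the 2 lines. None of the 3 reached a 2-fold difference in either direction, where 48 of the 252 rows past the brightness floor did, which is 19.0%. The floor required the brighter value of a row to reach the median of all values on both arrays, 2.26 units. None reached 1.5-fold either, a size that 42.1% of those rows passed. A size threshold is not a test, and beside a background of 19.0% a count of 0 of 3 is not a result about these entries. The log2 differences of the 3 entries ran from -0.24 to 0.13 with a median of 0.02, beside a median of 0.03 over the 252 rows.

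Placed one by one among the other 249 rows past the floor, the entries lay on the side of small differences. The difference was larger in size in 73.9% of those rows than for miR-690. The same held for 88.4% of them against miR-709. It held for 97.6% against miR-720. Each of these placements depended on the scaling. For miR-720 it was 90.4% after a lowess trend was subtracted, 89.2% with equal array sums and 84.7% after quantile normalization. For miR-709 it ran from 77.1% with equal array sums to 98.4% after quantile normalization, where its equal ranks fixed its difference. For miR-690 it ran from 69.9% with the 75th percentiles made equal to 84.7% after quantile normalization. The order of the entries changed with the scaling too, since miR-690 stood at 82.7% with equal array sums, above miR-709. The set of 249 rows spans rows down to the floor, so the rows nearest in brightness were also compared.

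Among the 20 rows nearest to miR-720 in mean log2 intensity, 19 had a larger difference in size and 1 a smaller one. The same 20 rows were nearest to miR-690, and 11 of them had a larger difference in size and 9 a smaller one. For miR-709, 16 of its 20 nearest rows had a larger difference and 4 a smaller one. These rows were sparse at this brightness, with Pam212 intensities from 209 to 11555 for miR-690 and miR-720 and from 168 to 865 for miR-709. Few rows were brighter than the entries, so most of the nearest rows were dimmer than the entry they were set beside. Each set held 1 row past 2-fold. In the values as deposited, miR-690 was thus near the middle of these mostly dimmer rows, and miR-709 and miR-720 were toward the small end. The nearest rows were compared in the deposited values alone.

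**Figure D3:**
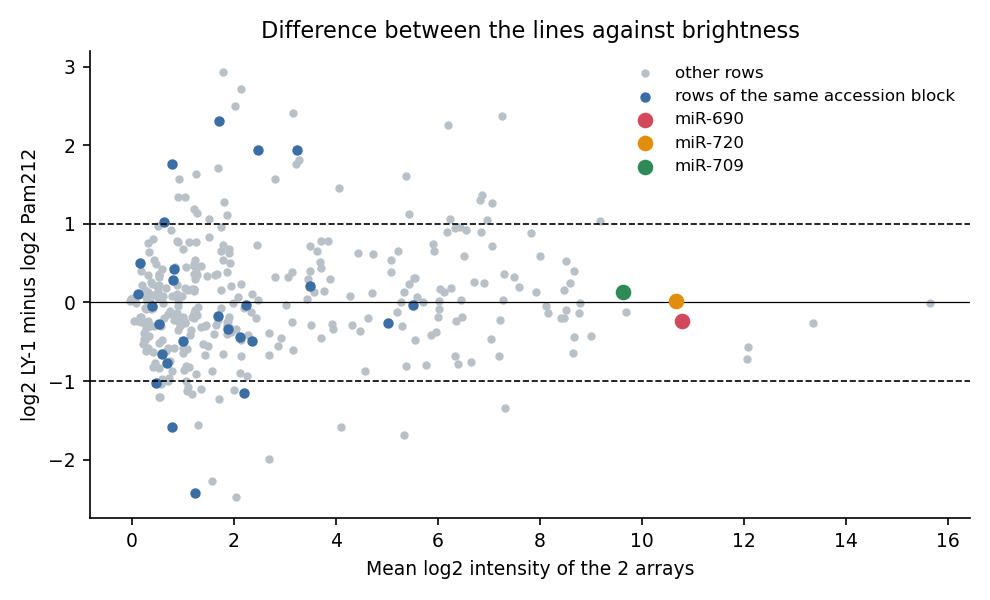
Log2 LY-1 minus log2 Pam212 intensity against the mean log2 intensity of both arrays, for the 354 rows with a value on each; dashed lines mark 2-fold. The 3 entries lie close to 0 at the bright end, while rows of the same accession block lie at lower intensities and some lie beyond the dashed lines.

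The rows with the most similar pair of intensities were found as the 3 nearest in the plane of the 2 log2 values, over 1 array per line. The nearest row to miR-690 was miR-720, at a distance of 0.25 log2 units, and the reverse also held. The remaining 2 of the 3 nearest rows to each lay between 1.38 and 1.66 log2 units away and were MIMAT0011216 and miR-709 for both. The nearest row to miR-709 was MIMAT0011216, at 0.20, with log2 differences of opposite sign, 0.13 for miR-709 and -0.12 for MIMAT0011216. The next, MIMAT0000136, was 0.90 away and had a log2 difference of 1.04. The third, MIMAT0011210, was 0.97 away and had a log2 difference of -0.43. Only the first of these neighbours of miR-709 was thus nearer than 0.90 log2 units.

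The brightest rows with late accession numbers mostly read lower in LY-1, and in the values as deposited 2 of the 3 entries did not share that sign. Among the 20 brightest other rows, 12 had accession numbers above 3000, and all 12 had a negative log2 difference, from -0.72 to -0.01. Over the 40 brightest other rows the late-numbered ones were mixed, with 14 negative and 4 positive of 18, up to 0.72 for MIMAT0009409. The other 8 of the 20 were numbered under 1000, and 5 of them had a positive difference, with a range from -0.44 to 1.04. Of the 3 entries, which are numbered above 3000 too, miR-690 was lower in LY-1, as those 12 rows were, and miR-709 and miR-720 were higher by 0.13 and 0.02. The count of 12 negative differences among the 20 rows became 8 after quantile normalization, 11 after a lowess trend was subtracted and 10 with equal array sums. The split at 3000 and the sets of 20 and 40 rows were chosen after the values were seen, and differences this small have no measured error against which to be read.

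The accession numbers of the 3 entries lie close together, and miRBase gives numbers broadly in order of registration. The table holds 64 rows from MIMAT0003450 to MIMAT0003519. The other 61 rows of this block were dim: 36 had a value in Pam212, with a median of 1.60 and a maximum of 45.9, and 33 had one in LY-1, with a median of 1.93 and a maximum of 45.0. No other row of the block reached 100 units on either array, a level that 53 of all 739 rows, or 7.17%, reached, the 3 entries included. Of the 61, 18 had no value on either array, 29.5% against 26.5% of all 739 rows. The median of all values on both arrays was 2.26 units, so low values were common beyond this block. The 3 entries held 96.2% of the block's summed intensity in Pam212 and 95.9% in LY-1, a share that follows from choosing them for brightness.

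The differences of the block's other rows were wider than those of the 3 entries. Past the brightness floor and measured on both arrays were 16 of them, with a median log2 difference of -0.22 and a range from -2.42 to 2.30. Of these 16, 4 were past 2-fold toward LY-1 and 3 were past 2-fold toward Pam212. Over all rows past the floor, 12.7% were 2-fold higher and 6.35% were 2-fold lower. The next brightest row of the block was MIMAT0003463, at 45.9 in Pam212 and 45.0 in LY-1, followed by MIMAT0003502 at 35.6 and 29.6. MIMAT0003501 read 10.5 and 12.1, a log2 difference of 0.20. MIMAT0003507 stood at 4.81 and 18.5 in the same order, which differ by 1.94 on the log2 scale. Because the block's other rows were far dimmer, their wider spread cannot be set against that of the bright entries.

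**Figure D4:**
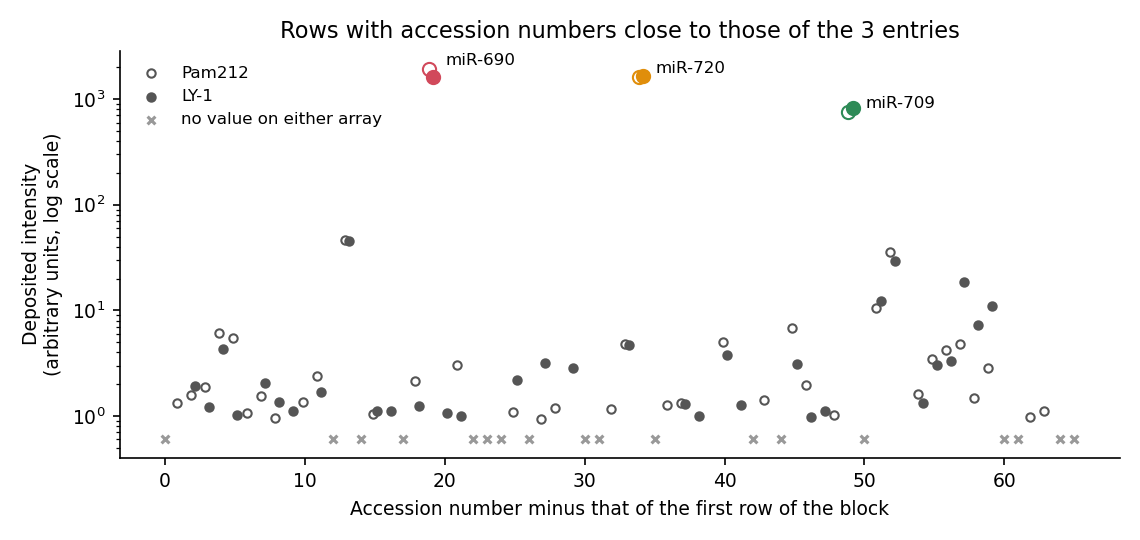
Deposited intensity (log axis, arbitrary units) in Pam212 (open) and LY-1 (filled) for the 64 rows of the block MIMAT0003450 to MIMAT0003519, by accession number counted from the first row; crosses mark the 18 rows with no value on either array. The 3 entries stand between 755 and 1919 units, and the next brightest row of the block stands at 45.9.

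The sequence of miR-690, shown above, was compared with the annotated mouse miRNAs by its seed and by uninterrupted shared runs. Of 1679 mature names in the RefSeq table, 0 others had its seed AAGGCUA at bases 2 to 8, and 1 other shared bases 2 to 7. The longest run of bases it shared with any other mature sequence was 9, with mmu-miR-12200-5p. The 22 bases comprised 10 A, 6 C, 4 G and 2 U, a G and C content of 45.5% beside a median of 52.2% over the 1679 names. Alignments that allow mismatches were not made, so a similar sequence with spaced mismatches would not have been seen.

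The Mir690 hairpin was predicted to fold less stably than most annotated mouse hairpins. Its predicted minimum free energy was -26.6 kcal/mol per 100 bases, against a median of -40.6 over 1005 hairpins, and 5.57% of those hairpins were less stable. In the predicted fold 68.2% of the mature bases were paired, against a median of 81.0% over 1581 mature sequences, of which 9.99% had a smaller share. The mature strand occupies bases 83 to 104 of the 109-base hairpin. These are predictions for 1 annotated sequence and carry no measurement from the arrays. The folding comparison was added after the array values were seen.

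Some stretches of the hairpin recurred in mouse promoter sequences more often than the rest of it. Each of its 98 windows of 12 bases was searched, on both strands and allowing overlaps, in 32544 distinct promoter sequences of 300 bases, which include overlapping promoters of the same gene. The median window occurred in 3 promoters, 20 windows occurred in none and 9 occurred in 20 or more. No other hairpin was searched in this way, so whether such counts are unusual for a hairpin is not known. The most frequent, GAGATGGCTCAG, occurred in 130 promoters, or 0.399%, and in 9 of the 1005 hairpins, Mir690 included. A second, GGCTCACAACCA, lies within the mature miR-690 strand and occurred in 100 promoters, or 0.307%, and in 1 hairpin, that of Mir690. Outside the capitals of the printed hairpin, no window occurred in more than 14 promoters.

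The capitals cover bases 60 to 78 of the hairpin, just before the mature strand, and bases 91 to 102, inside it. Stretches like these are known from B2 elements, short interspersed repeats of the mouse genome that descend from a transfer RNA gene. B2 elements are transcribed by RNA polymerase III. The stretches were not compared with a B2 sequence here, so whether they come from one was not tested. The tables used here carry no repeat annotation, and no array value here measures B2 RNA. The limit of 20 promoters for the capitals was set after the counts were seen.

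**Figure D5:**
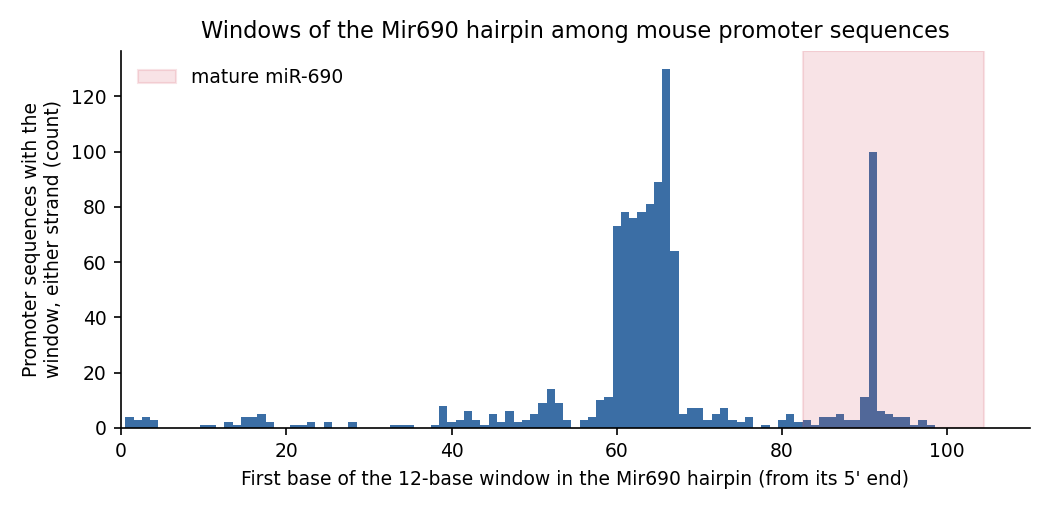
Number of the 32544 promoter sequences that hold each 12-base window of the Mir690 hairpin on either strand, by the window's first base from the 5′ end, with the mature miR-690 bases shaded. The counts stand out at 2 places, reaching 130 before the mature strand and 100 within it, against a median of 3.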

How the data were processed

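The authors' deposited table gives 1 intensity per row and array on a linear scale, for 1 Pam212 and 1 LY-1 array. Per the labels' protocols, column-purified total RNA was labelled with the dye Hy5 by the miRCURY LNA labelling kit. Scanning, background subtraction, spot averaging, scaling and the meaning of null cells are not given in the sources used here. Duplicate spots are mentioned in the series text, but the table holds no value per spot, so the error of an intensity is unknown and the number of arrays limits the precision.

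The entries, the accession block and the tests were chosen with earlier results of these data known. Intensities were used as deposited, because the median log2 difference over the 354 rows with both values was 0.00. Shares are percent of the summed intensity of an array. Differences are log2 LY-1 minus log2 Pam212 with no pseudocount. With 1 array per line no p-value was computed. The text names the 3 entries, the rows ranked beside them, the 5 brightest rows, the 3 nearest rows and the block's rows at or above the pooled 75th percentile of 11.0. These rows are summarised where they were many. Cell type markers were not analysed here, since rows carry no names.

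RefSeq tables (GRCm38.p6) gave sequences and gene spans. Hairpins were folded with RNAfold (ViennaRNA 2.7.2) at default settings. Calculations used Python 3.11.15, numpy 2.4.6, pandas 2.3.3 and statsmodels 0.14.6, with figures from matplotlib 3.10.9, and the scripts were tested on simulated data. The alternatives changed the scaling, the pseudocount, the floor, the size threshold and the rows summed.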

Additional observations from a re-analysis of the deposited data

How the results depend on the processing

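Under 4 scalings, a pseudocount and equal array sums (the last added after seeing the data), the log2 difference ran from -0.28 to -0.13 for miR-690, from 0.00 to 0.21 for miR-709 and from -0.02 to 0.13 for miR-720, so the sign of miR-720 was not stable and no entry reached 1.5-fold. Quantile normalization moved all 3 by over 0.1, to -0.13, 0.00 and 0.13, because it keeps ranks only, and miR-690 and miR-720 exchanged theirs. No rank changed when rows with 1 value or several accessions were left out. Leaving out the brightest row raised the Pam212 and LY-1 shares by construction, to 4.78% and 4.60% for miR-690, 1.88% and 2.33% for miR-709, 4.03% and 4.65% for miR-720, and 10.7% and 11.6% for all 3. Leaving out the 4 brightest rows, added after seeing the data, gave 10.7% and 8.62%, 4.22% and 4.37%, 9.04% and 8.71%, and 24.0% and 21.7% in the same order. The summed share was 2.59% and 2.85% without miR-690, 3.86% and 3.78% without miR-709, and 2.92% and 2.83% without miR-720. The counts of 32 higher and 16 lower rows became 63 and 43 at 1.5-fold, 15 and 7 at 3-fold, 17 and 4 with the floor at the pooled 75th percentile (121 rows in place of 252), and 18 and 6 with both values at the floor (186 rows). The pseudocount of 1.02 left 25 higher and 8 lower. Quantile normalization gave 27 higher and 22 lower, and equal array sums gave 37 and 15, so the balance of the 2 directions depended on the scaling. With 1 array per line there was no replicate to leave out. No paired analysis was possible because each line has 1 array.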
